A study of Mus musculus with 8 samples.

Results

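The genes described here are 10 immediate early genes, out of 32285 genes in the count table: Fos, Fosb, Jun, Junb, Atf3, Egr1, Ier2, Ier3, Dusp1 and Zfp36. They were chosen by name, as subunits of the AP-1 transcription factor and other genes known for fast induction. The choice was made with earlier results of these data known, and all 10 were found. Their UMIs were read in mouse bone marrow cells by maturation stage, in cells rich in basophil and mast cell transcripts, and with deoxycholic acid against a media control. Deoxycholic acid is a bile acid that gut bacteria form from one the liver makes. The deoxycholic acid group held whole bone marrow cells treated with 35 µM of it for 1 week, and the media control held whole bone marrow cells in long-term culture medium for 1 week. All cells, in both groups, were grown on irradiated AFT024 cells, a fibroblast line from embryonic mouse liver used as a feeder, in a MyeloCult M5300 medium with 1 µM hydrocortisone, a glucocorticoid. Suspended and trypsin-detached cells were pooled, lineage-negative cells were sorted, and 10x Genomics 3′ libraries were made. The part of detachment and sorting in the members' levels was not tested. Of the mice, neither strain nor age is given in the sources used here.

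Barcodes numbered 8520 in the deoxycholic acid library, with 131341422 UMIs in all, and 9346 in the media control library, with 183462851. After filtering, 7755 deoxycholic acid cells with a median of 14424 UMIs and 8495 media control cells with a median of 18831 UMIs were kept, and 25 barcodes occurred in both libraries. The labels list 4 samples a group, which the names of the cells do not tell apart, so each group is treated as 1 library and no difference between the groups has a replicate check. Values are UMIs per 1000000 UMIs (CPM) over the summed cells of a library, and each log2 ratio has an exact 95% interval that covers counting error only. The spread between cultures is not in these intervals, and neither is the clustering of UMIs within cells. In such sums, more cells with a transcript and more transcript per cell cannot be told apart.

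Immediate early genes are transcribed within minutes of a signal such as a growth factor, a cytokine or stress, without new protein synthesis, because the factors that switch them on are already in the cell. Fos and Jun proteins pair through leucine zippers to form AP-1, and other members of the set end the response: Dusp1 protein dephosphorylates MAP kinases, and Zfp36 protein, also called tristetraprolin, directs the decay of AU-rich mRNAs. Many of their mRNAs are short-lived. In basophils and mast cells, antibody receptor signalling induces several of these genes, and in neutrophils they accompany activation by cytokines and microbial products.

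RefSeq promoters on GRCm38.p6, taken as the 250 bases before the annotated start, were searched for 8 of the 10 members, not Egr1 and Ier2, and 6 are shown, those of the Fos and Jun subunits and of the feedback genes, because their genes lay on both sides of the treatment comparison. Fos (chr12:85473640-85473889, plus strand), Fosb (chr7:19310046-19310295, minus strand), Jun (chr4:95052223-95052472, minus strand) and Dusp1 (chr17:26508473-26508722, minus strand) were higher in the deoxycholic acid library. Junb (chr8:84978749-84978998, minus strand) and Zfp36 (chr7:28379229-28379478, minus strand) were lower. Each reads 5′ to 3′ towards its gene. Capitals mark TGACG (the core that CREB and ATF proteins bind) and its full palindrome TGACGTCA on either strand, the CArG box bound by serum response factor, and TATAAA.
Fos: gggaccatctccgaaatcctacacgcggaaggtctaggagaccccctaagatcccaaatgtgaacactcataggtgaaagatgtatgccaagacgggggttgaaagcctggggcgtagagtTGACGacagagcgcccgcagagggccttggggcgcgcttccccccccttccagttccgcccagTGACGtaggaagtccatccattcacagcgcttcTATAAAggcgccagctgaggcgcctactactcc
Fosb: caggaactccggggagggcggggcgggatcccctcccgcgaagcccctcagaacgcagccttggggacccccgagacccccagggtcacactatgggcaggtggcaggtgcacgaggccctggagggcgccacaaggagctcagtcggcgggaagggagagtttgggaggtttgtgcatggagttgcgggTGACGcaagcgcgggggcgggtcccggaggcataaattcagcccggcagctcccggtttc
Jun: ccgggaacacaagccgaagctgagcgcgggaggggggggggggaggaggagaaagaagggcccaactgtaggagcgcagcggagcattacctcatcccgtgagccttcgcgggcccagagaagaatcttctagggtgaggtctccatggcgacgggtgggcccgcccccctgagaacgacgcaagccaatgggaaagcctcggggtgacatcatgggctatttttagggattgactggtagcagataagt
Junb: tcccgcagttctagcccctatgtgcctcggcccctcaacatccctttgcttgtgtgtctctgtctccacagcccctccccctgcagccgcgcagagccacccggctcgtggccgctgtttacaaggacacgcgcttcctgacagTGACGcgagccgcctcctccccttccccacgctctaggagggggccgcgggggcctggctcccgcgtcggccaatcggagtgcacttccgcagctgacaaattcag
Dusp1: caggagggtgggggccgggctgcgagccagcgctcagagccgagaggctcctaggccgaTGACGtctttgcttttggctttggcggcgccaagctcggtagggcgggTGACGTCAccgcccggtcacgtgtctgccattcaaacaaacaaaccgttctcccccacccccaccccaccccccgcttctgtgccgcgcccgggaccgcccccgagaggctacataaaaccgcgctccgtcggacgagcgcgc
Zfp36: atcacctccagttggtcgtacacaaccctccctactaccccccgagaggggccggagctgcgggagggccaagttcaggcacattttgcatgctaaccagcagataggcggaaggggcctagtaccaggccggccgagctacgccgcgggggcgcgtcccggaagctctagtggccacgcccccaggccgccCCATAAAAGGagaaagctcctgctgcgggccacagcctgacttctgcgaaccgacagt
TGACG, in either orientation, was found in 5 of the 8 windows, with 3 matches in Dusp1, 2 in Fos and 1 each in Fosb, Junb and Atf3, against 17.8% of all 32851 promoter windows of the same length. Of the matches in Dusp1, an overlapping pair on opposite strands makes up TGACGTCA, a palindrome found in 1.55% of all windows. Jun, Ier3 and Zfp36 had no TGACG, so the match did not divide the members by direction: Jun was higher without it and Junb lower with it. Among the 8 windows, only that of Zfp36 had a CArG box, 48 bases before the start, a match found in 1.47% of all windows. Fos had TATAAA 27 bases before the start, which 12.4% of windows held. The heptamer TGANTCA, a form of AP-1 site, was in none of the 8 windows and in 6.75% of all windows. Variants of these motifs, such as TGACATCA in the Jun window, and bases further upstream were not searched. The absence of a match therefore does not show that a window or gene lacks an AP-1 or other such site. These matches describe the letters of the windows and show no binding.

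Cells were divided by granule and lineage transcripts, none of them a member of the set, with thresholds in UMIs per 10000. Neutrophils make primary granule proteins first, secondary granule proteins later and gelatinase and chemokine receptors last. The Mpo-high primary granule gate held 2016 deoxycholic acid and 2245 media control cells, the Mpo-low primary granule gate 1393 and 1704, the secondary granule gate (Ltf of at least 5) 2833 and 2973, and the late neutrophil gate (Mmp9 plus Cxcr2 of at least 3) 456 and 544. The basophil or mast gate (Prss34, Cpa3 and Hdc together at least 10) held 92 deoxycholic acid cells, 1.19% of those kept (exact 95% interval 0.957 to 1.45%), and 152 media control cells, 1.79% (1.52 to 2.09%). The other 965 and 877 cells were ungated, and carried secondary granule transcripts at a summed 39929 and 39311 CPM. The gates are ranges, not cell types: 286 deoxycholic acid and 277 media control cells lay between 0.5 times the late threshold and the threshold, and 9 and 12 did so at the basophil or mast gate. Median depth differed between gates, from 18266.5 and 24336 UMIs in Mpo-high cells to 4545.5 and 6124 UMIs in the basophil or mast gate.

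The basophil or mast gate was checked against marker lists. All 9 basophil markers reached 20 CPM, including Prss34 and Cpa3, which had chosen the gate, and Mcpt8, a basophil protease, which was at 8458 CPM in the deoxycholic acid library and 7093 CPM in the media control library. Of the 8 mast cell markers 5 reached that level, Cma1, Kit, Gata2, Cpa3 and Hdc, of which Cpa3 and Hdc had chosen the gate and Gata2 and Cpa3 are also on the basophil list, while the mast cell proteases Tpsb2, Tpsab1 and Mcpt4 were at 0. The eosinophil list reached it with 4 of 5 genes, at a summed 6905 and 6295 CPM, of which Prg2, made by eosinophils and also by basophils, gave 6699 and 6043 CPM. The neutrophil primary granule list summed to 2855 and 3758 CPM. Ctsg, a primary granule protease, gave the most, at 1576 and 2371 CPM, and Elane the least, at 98.2 and 229 CPM. The secondary granule list summed to 2060 and 3038 CPM. Of the monocyte markers, 4 of 6 reached 20 CPM in both libraries. The part of these other cell types in the members' levels was not tested.

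All 10 members were at least 4-fold higher in the basophil or mast gate than in the other kept cells of the same library, in both libraries. The background share was 4.66% of 3307 genes tested in the deoxycholic acid library and 5.99% of 4271 in the media control library. The 10 members together made up 13076 CPM of the gate's UMIs in the deoxycholic acid library and 14376 CPM in the media control library. In the late neutrophil gate they summed to 2086 and 1933 CPM, and in the Mpo-high gate, the lowest of the 6, to 888 and 654 CPM.

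Egr1, a zinc finger transcription factor induced by serum and MAP kinase signals, was the most concentrated member. In the deoxycholic acid library it was at 2215 CPM in the gate and 14.1 CPM in the other cells, a 157-fold difference (146 to 169), and ranked 28 among 3307 genes by this ratio. In the media control library it was at 1935 CPM in the gate and 11.0 CPM in the other cells, 176-fold (166 to 187), ranked 38 among 4271 genes. The gate held 45.5% of all Egr1 UMIs of the deoxycholic acid library and 58.8% of those of the media control library, while holding 0.528% and 0.804% of all UMIs. After each cell was thinned to 2000 UMIs, Egr1 was found in 88.6% of 88 gate cells in the deoxycholic acid library (exact 95% interval 80.1 to 94.4%) and in 86.5% of 141 gate cells in the media control library (79.8 to 91.7%). In Mpo-low primary granule cells, the gate lowest in Egr1 by CPM, these shares were 1.59% and 0.764%, a level that free RNA in the droplets may also give.

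Ier3, a gene linked to survival signalling, followed at 1761 CPM in gate cells against 61.5 CPM in other cells of the deoxycholic acid library, 28.6-fold, and at 2704 against 65.6 CPM in the media control library, 41.2-fold. Atf3, a stress-induced AP-1 partner, was 20.1-fold and 32.5-fold higher in the gate, from 141.6 and 173.5 CPM there. Fos was at 2896 against 169 CPM in the deoxycholic acid library, 17.1-fold, and at 2835 against 116 CPM in the media control library, 24.5-fold. Fosb, a Fos relative, was 14.5-fold and 22.2-fold higher, Junb, a Jun relative, 15.8-fold and 21.9-fold, Zfp36 15.7-fold and 23.1-fold, and Dusp1 11.8-fold and 19.5-fold. Jun and Ier2, a nuclear protein gene induced by growth factors, had the smallest folds: Jun was at 2793 against 497 CPM, 5.62-fold, and at 2747 against 330 CPM, 8.33-fold, while Ier2 was 6.27-fold and 8.35-fold higher. The deoxycholic acid library had the smaller fold for every member, and the 95% intervals of the libraries overlapped for Egr1 alone.

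**Figure D1:**
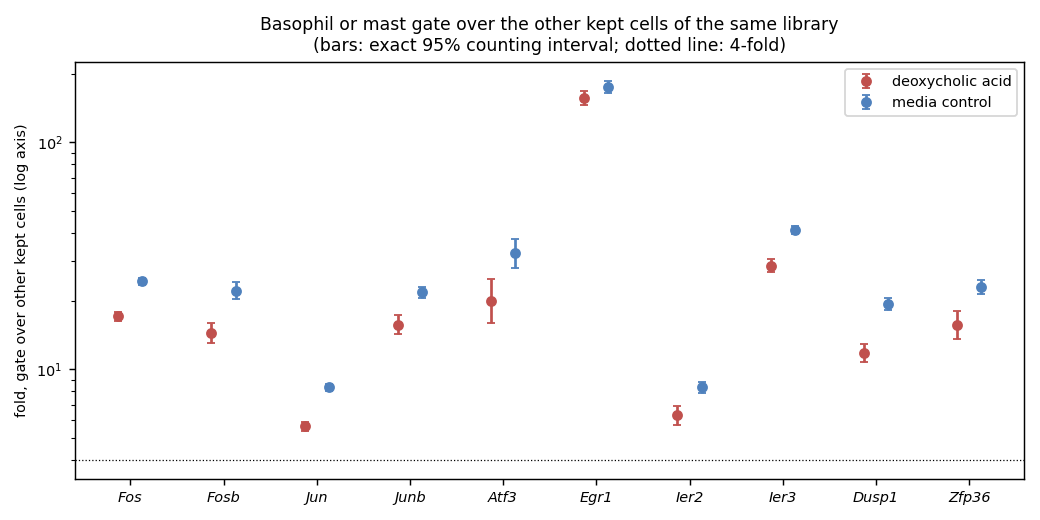
Fold of each member in the basophil or mast gate over the other kept cells of the same library (log axis), with exact 95% counting intervals, for the deoxycholic acid and media control libraries. All 10 members lie above 4-fold in both, and Egr1 lies highest at 157-fold and 176-fold.

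Most gate cells carried most of the set. At 2000 UMIs a cell, gate cells had a median of 7.5 of the 10 members in the deoxycholic acid library and 8 in the media control library, and 84.1% and 85.8% had at least 5, against 3.39% and 3.37% of all kept cells. Per cell, the summed members had a median of 139 UMIs per 10000 in the deoxycholic acid gate cells, with 5th and 95th percentiles of 14.3 and 478, and 186 in the media control gate cells, with percentiles of 24.9 and 512. Within the gate, after the mean of each library was taken out, every one of the 45 member pairs had a Pearson r above 0 over 229 cells, with a median of 0.439 and a range of 0.268 to 0.596. Jun with Junb (0.596) and Fos with Dusp1 (0.590) were the closest. These r values are descriptions over cells of the same libraries.

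The gate divided by Mcpt8 at 10 UMIs per 10000, a split chosen after seeing the data, into 69 Mcpt8-positive and 23 Mcpt8-low cells in the deoxycholic acid library and 111 and 41 in the media control library. Egr1 was at 2481 CPM in Mcpt8-positive and 1500 CPM in Mcpt8-low cells of the deoxycholic acid library, and at 2079 and 1491 CPM in those of the media control library. Ier3 was likewise higher in Mcpt8-positive cells, at 1893 against 1405 CPM and 3057 against 1616 CPM, and so was Fos, at 3243 against 1963 CPM and 3167 against 1811 CPM. Atf3 was lower in Mcpt8-positive cells of the media control library, at 149 (126 to 174) against 250 CPM (199 to 311), while in the deoxycholic acid library it was at 137 against 154 CPM with overlapping intervals. Jun was at 2684 against 3083 CPM and 2736 against 2780 CPM, with intervals that overlapped in both libraries. Cma1, a mast cell chymase, was at 28.7 against 101 CPM in the deoxycholic acid library and 0.990 against 226 CPM in the media control library, and Prss34, a basophil protease that also chose the gate, was at 3773 against 35.6 CPM and 5329 against 107 CPM. Egr1, Fos, Jun and Ier3 were high both in cells with much Mcpt8 and in the gate cells with little.

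Among neutrophil stages, the late neutrophil gate stood highest in the set, and not for every member. The comparison cells here were the kept cells outside both this gate and the basophil or mast gate. At least 4-fold higher in late cells were 4 members in the deoxycholic acid library (background 4.92% of 5308 genes) and 5 in the media control library (background 5.63% of 5275 genes). Egr1 was 5.71-fold higher in the deoxycholic acid library and 6.07-fold in the media control library, Zfp36 4.96-fold and 6.33-fold, Junb 4.99-fold and 5.01-fold, and Dusp1 4.37-fold and 5.41-fold. Atf3 was 3.02-fold and 5.51-fold higher. Fosb, at 1.13-fold and 1.52-fold, and Jun, at 1.40-fold and 1.82-fold, differed least, and the Fosb interval in the deoxycholic acid library ran from 0.939 to 1.34.

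**Figure D2:**
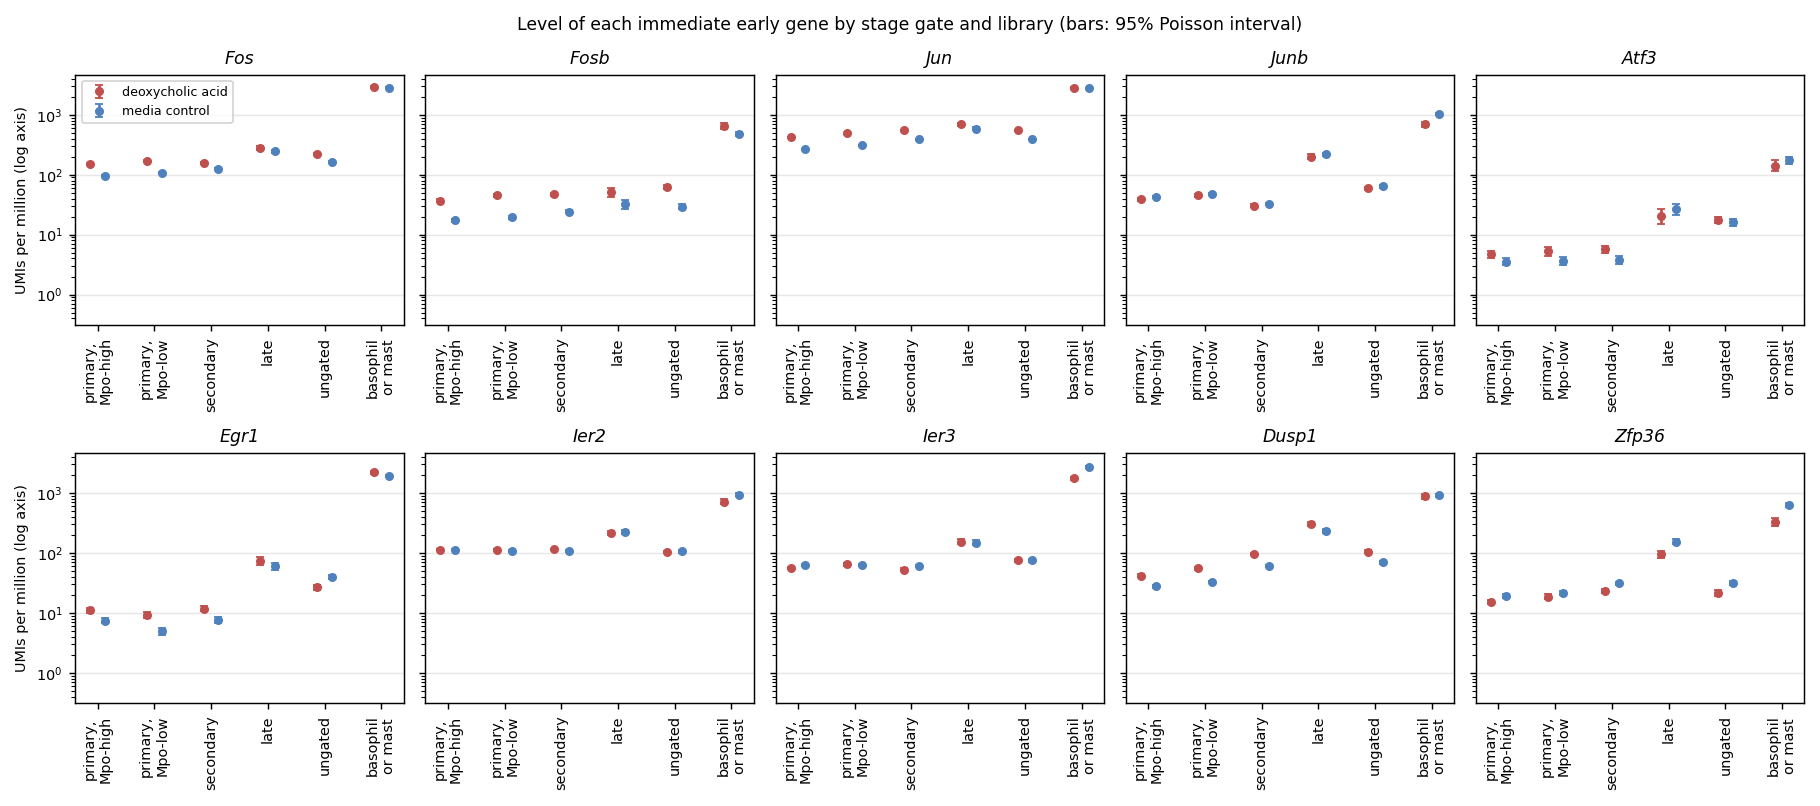
CPM of each of the 10 members (log axis) in the 6 gates, for the deoxycholic acid and media control libraries, with exact 95% counting intervals. Every member is highest in the basophil or mast gate, and among the other gates every member but Fosb is highest in late neutrophils in both libraries.

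Set against the media control library over all kept cells, the deoxycholic acid library was higher by a log2 ratio of at least 0.5 for 3 members, Fosb, Jun and Dusp1, where 1.69% of 4670 genes were that much higher. It was lower by at least 0.5 for 1 member, Zfp36, where 3.17% of genes were. Of the 10 members 9 passed the minimum of 20 CPM and 50 UMIs in the higher library, and Atf3 did not. The median log2 ratio of all genes tested was 0.04, with the central 95% from -0.55 to 0.44.

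Fosb was at 48.2 CPM in the deoxycholic acid library and 24.8 CPM in the media control library, a log2 ratio of 0.96 (0.90 to 1.02), at percentile 99.9 of all genes tested. Jun was at 509 and 349 CPM (0.54, 0.53 to 0.56), Fos at 183 and 138 CPM (0.41, 0.39 to 0.44), and Dusp1 at 78.4 and 53.8 CPM (0.54, 0.50 to 0.59). For these 4 genes the intervals of the libraries did not overlap. Junb, whose protein also pairs with Fos, did not share that direction, at 47.2 CPM in the deoxycholic acid library and 55.1 CPM in the media control library (-0.22, -0.27 to -0.18). Zfp36 was at 22.6 and 32.1 CPM (-0.51, -0.57 to -0.44) and Ier3 at 70.4 and 86.8 CPM (-0.30, -0.34 to -0.26). The remaining measured members lay close to equality: Ier2 was at 118.1 and 118.6 CPM (-0.01, -0.04 to 0.03) and Egr1 at 25.7 and 26.5 CPM (-0.04, -0.11 to 0.03). Over all kept cells, then, the AP-1 subunits split into Fos, Fosb and Jun on the higher side and Junb on the lower.

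These totals mix the basophil or mast gate, which was a smaller share of the deoxycholic acid cells, with the rest. Without it, 4 of 8 members passing the minimum were higher by at least 0.5 (background 1.72% of 4657 genes) and none was lower (background 3.09%). Fos reached 169 CPM in the deoxycholic acid library against 116 CPM in the media control library (0.54), Fosb 45.0 against 21.2 CPM (1.09), Jun 497 against 330 CPM (0.59) and Dusp1 74.2 against 46.9 CPM (0.66). Zfp36 was at 21.0 against 27.2 CPM (-0.38). Junb and Ier3 lay closer to equality than over all kept cells. Junb was at 43.8 against 47.2 CPM (-0.11, -0.16 to -0.06) and Ier3 at 61.5 against 65.6 CPM (-0.09, -0.14 to -0.05). Egr1, below the minimum there, was at 14.1 against 11.0 CPM (0.36, 0.26 to 0.46), whereas over all kept cells its interval included 0. With cells thinned to 5000 UMIs, a setting that keeps 44 of the 92 deoxycholic acid gate cells and 102 of the 152 media control gate cells, Egr1 over all kept cells was at -0.59 and Ier3 at -0.65. Ier2, without the gate and unthinned, was at 115 against 112 CPM (0.04, 0.00 to 0.07). Jun and Dusp1 over all kept cells passed 0.5 narrowly and were at 0.49 with TMM and with median-of-ratios factors, which move all genes by -0.06 and -0.05.

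**Figure D3:**
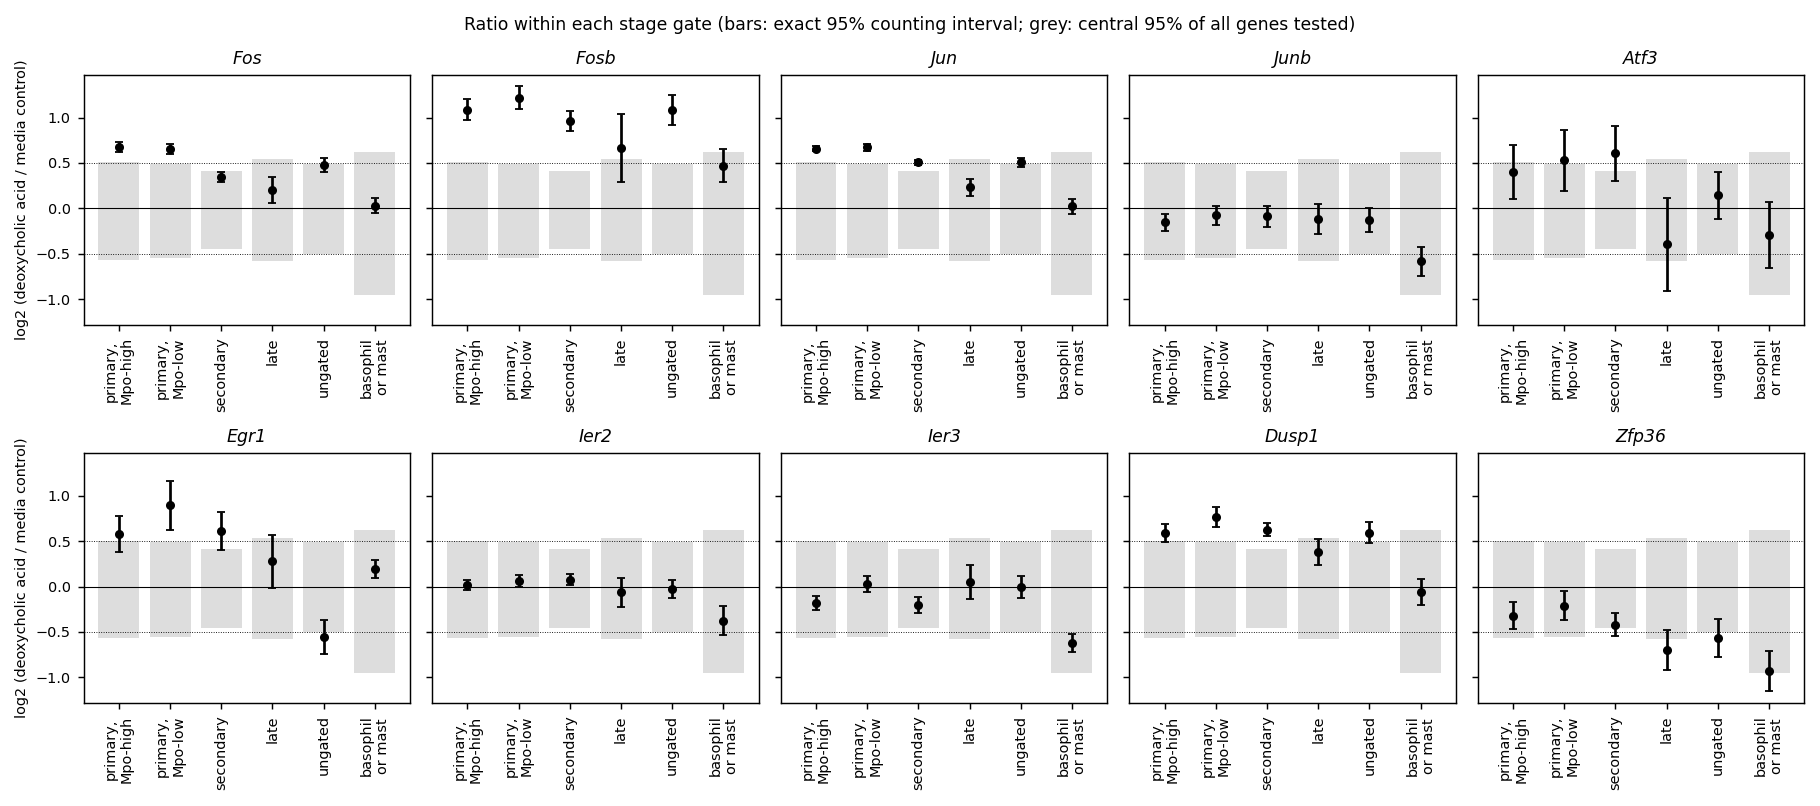
Log2 ratio of deoxycholic acid over media control for each member in the 6 gates, with exact 95% counting intervals. Fosb lies above 0 in every gate, Zfp36 below 0 in every gate, and Fos and Jun move from 0.68 and 0.66 in Mpo-high cells to 0.03 and 0.02 in the basophil or mast gate.

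Stage by stage, Fosb was higher in the deoxycholic acid library in each of the 6 gates, and the intervals excluded 0 throughout. It was at 36.7 against 17.3 CPM in Mpo-high cells (1.09), 45.4 against 19.5 CPM in Mpo-low cells (1.22), 46.8 against 24.1 CPM in secondary granule cells (0.96), 50.6 against 32.0 CPM in late neutrophils (0.66), 62.1 against 29.4 CPM in ungated cells (1.08) and 652 against 471 CPM in the basophil or mast gate (0.47, 0.28 to 0.65). Fos was at 151 against 94.6 CPM in Mpo-high cells (0.68, 0.63 to 0.73) and 171 against 108 CPM in Mpo-low cells (0.65, 0.59 to 0.71). Its ratio was smaller in secondary granule cells, at 157 against 124 CPM (0.34, 0.29 to 0.40), and in late neutrophils, at 282 against 246 CPM (0.20, 0.05 to 0.34). In the basophil or mast gate Fos was at 2896 against 2835 CPM (0.03, -0.05 to 0.11), a difference not detectable at this depth. Jun was at 0.66 in Mpo-high, 0.67 in Mpo-low, 0.51 in secondary granule and 0.23 in late neutrophil cells, and at 0.02 (-0.06 to 0.11) in the basophil or mast gate. The stages of 1 library are not replicates, and differences between their ratios were not tested.

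Dusp1 was at 41.8 against 27.8 CPM in Mpo-high cells (0.59), 55.8 against 32.8 CPM in Mpo-low cells (0.77), 95.2 against 61.7 CPM in secondary granule cells (0.63), 302 against 232 CPM in late neutrophils (0.38) and 877 against 914 CPM in the basophil or mast gate (-0.06, -0.21 to 0.09). Zfp36, the other feedback gene, was lower in the deoxycholic acid library in all 6 gates. It was at 15.4 against 19.2 CPM in Mpo-high cells (-0.32), 23.4 against 31.3 CPM in secondary granule cells (-0.42), 95.7 against 155 CPM in late neutrophils (-0.69, -0.92 to -0.47) and 330 against 628 CPM in the basophil or mast gate (-0.93, -1.16 to -0.71). So the feedback genes Dusp1 and Zfp36 lay on opposite sides in each neutrophil gate. Junb lay between -0.16 and -0.08 in the neutrophil gates and at 690 against 1034 CPM in the basophil or mast gate (-0.58, -0.74 to -0.42). Its intervals were -0.25 to -0.06 in Mpo-high, -0.18 to 0.02 in Mpo-low, -0.20 to 0.03 in secondary granule and -0.28 to 0.05 in late neutrophil cells. Ier3 lay between -0.20 and 0.05 in the neutrophil gates and at 1761 against 2704 CPM in the basophil or mast gate (-0.62, -0.72 to -0.52).

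Egr1 differed in direction between gates. It was at 11.0 against 7.39 CPM in Mpo-high cells (0.58, 0.38 to 0.78), 9.24 against 4.96 CPM in Mpo-low cells (0.90, 0.63 to 1.17) and 11.8 against 7.71 CPM in secondary granule cells (0.62, 0.41 to 0.83), all below the minimum of 20 CPM. In late neutrophils it was at 73.0 against 60.2 CPM (0.28, -0.01 to 0.57) and in the basophil or mast gate at 2215 against 1935 CPM (0.20, 0.10 to 0.29). In ungated cells it was lower in the deoxycholic acid library, at 26.7 against 39.2 CPM (-0.55, -0.74 to -0.37). There the 10 cells with the most Egr1 held 44.6% of 377 UMIs in the deoxycholic acid library and 58.6% of 618 UMIs in the media control library. The megakaryocyte and erythroid marker list summed to 23.2 and 68.2 CPM in the same cells, most of it Pf4, a platelet chemokine, at 19.2 and 59.1 CPM. The part of such cells in the Egr1 difference was not tested. Atf3 passed the minimum in late neutrophils, at 20.4 against 26.8 CPM (-0.39, -0.91 to 0.11), and in the basophil or mast gate, at 142 against 174 CPM (-0.29, -0.66 to 0.07), and in both its interval included 0. Ier2 lay between -0.06 and 0.08 in the neutrophil gates and at 721 against 936 CPM in the basophil or mast gate (-0.38, -0.53 to -0.22).

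Counted against 0.5, the members higher and lower in the deoxycholic acid library were 4 and 0 of 7 measured in Mpo-high cells (background 2.62% and 3.33%) and 4 and 0 of 8 in Mpo-low cells (2.36% and 3.21%). In secondary granule cells they were 3 and 0 of 8 (1.13% and 1.82%), in late neutrophils 1 and 1 of 10 (3.12% and 4.02%) and in ungated cells 3 and 2 of 9 (2.26% and 2.68%). In the basophil or mast gate none of the 10 was higher and 3 were lower, Junb, Ier3 and Zfp36, where 4.56% and 13% of 2630 genes were. The median log2 ratio of all genes in that gate was -0.10, and lower values were more common there than in the other gates. Heat shock genes, which also respond to stress, summed to 6739 and 6914 CPM in Mpo-high cells, 1736 and 1684 CPM in secondary granule cells and 4970 and 5087 CPM in the basophil or mast gate.

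Per cell, the summed members had medians of 6.86 UMIs per 10000 in deoxycholic acid and 4.90 in media control Mpo-high cells, 7.55 and 5.31 in Mpo-low cells, 8.77 and 6.97 in secondary granule cells, 17.8 and 16.9 in late neutrophils, and 8.66 and 5.80 in ungated cells. In these 5 gates the deoxycholic acid median was the higher, and in the basophil or mast gate the lower, at 139 against 186. Such sums weigh abundant members most. In Mpo-high cells Jun made up 418 of 888 CPM with deoxycholic acid and 265 of 654 CPM in the media control. With cells thinned to 5000 UMIs, 7108 deoxycholic acid and 7833 media control cells remained and 647 and 662 shallower ones were left out. A cell then held on average 2.52 members in the deoxycholic acid library and 2.33 in the media control library. Unthinned, the means were 4.23 and 4.35, in the opposite order, with the media control cells more deeply sequenced. Jun was found in 67.8% and 58.7% of thinned cells, Fos in 42.6% and 35.2%, Dusp1 in 25.2% and 19.97%, and Fosb in 16.8% and 9.64%. Zfp36 was found in fewer deoxycholic acid cells, 9.67% against 13.9%. No cell class that should lack these genes was at hand to set the level that free RNA gives. Within each library, the shares just given follow the order of the CPM values of the genes named.

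**Figure D4:**
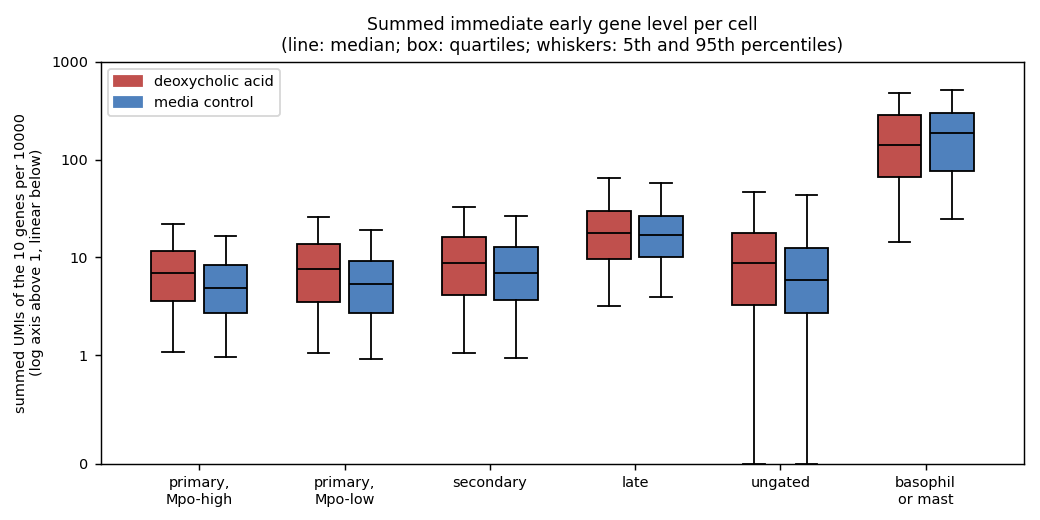
Summed UMIs of the 10 members per 10000 in single cells of each gate, for the deoxycholic acid and media control libraries, with the median and the spread over cells. The medians are 6.86 and 4.90 in Mpo-high cells and 139 and 186 in the basophil or mast gate.

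Outside the basophil or mast gate the r values of member pairs were low. Members were at lower levels there, which limits r, and gate cells had been thinned to 2000 UMIs instead. The r values inside and outside the gate are therefore not directly comparable. Over 14795 cells thinned to 5000 UMIs, with the mean of each stage and library taken out, pairs had a median Pearson r of 0.101, from 0.0339 to 0.239, and Fos with Dusp1 (0.239) and Fos with Jun (0.232) were the closest. Among 4475 other genes, the closest to the summed members over 14941 cells were Neat1 (r = 0.335), a nuclear long noncoding RNA, Jund (0.292), a Jun relative, Fth1 (0.258), a ferritin chain, Klf6 (0.250), Cxcl2 (0.240), Mmp8 (0.182), Klf2 (0.178), Slc7a11 (0.177), Trib1 (0.169) and Rhob (0.163). The median over all genes was 0.0103, with the central 95% from -0.0650 to 0.0723. The summed members had an r of 0.0115 with the mitochondrial share and -0.0211 with the log of UMIs, and the same 10 genes led when the gate was left out.

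Of genes beyond the 10, few differed by 0.5. Among 13 other AP-1 subunits and partners 5 passed the minimum and none was past 0.5 either way, with a median log2 ratio of 0.05. Jund was at 199 CPM in the deoxycholic acid library and 162 CPM in the media control library (0.30), Atf4 at 160 and 154 CPM (0.05) and Mafg at 57.9 and 60.3 CPM (-0.06). Among 16 other immediate early transcription factors 6 passed and 1 was higher, Klf10, a TGF-β-inducible Krüppel-like factor, at 36.1 and 19.3 CPM (0.90). Their median was 0.22, with Cited2 at 269 and 246 CPM (0.13), Klf6 at 219 and 168 CPM (0.38) and Btg1 at 90.1 and 79.8 CPM (0.18). Of 20 other feedback regulators 8 passed, none was past 0.5 and the median was -0.07, with Nfkbia, an inhibitor of NF-κB, at 286 and 360 CPM (-0.33), Pim1 at 105 and 105 CPM (0.00) and Zfp36l2, a relative of Zfp36, at 61.8 and 70.0 CPM (-0.18).

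Upstream, 8 of 16 kinases and transcription factors that act on the set passed the minimum, with none past 0.5 and a median of 0.08. Mapk3, a MAP kinase gene, was at 85.6 CPM in the deoxycholic acid library and 90.4 CPM in the media control library (-0.08), and Map2k2, which encodes a kinase that activates MAP kinases, was at 77.4 and 75.002 CPM (0.05). Of 11 heat shock genes 7 passed, none past 0.5, with a median of -0.09, and the most abundant was Hsp90ab1 at 1999 and 2121 CPM (-0.09). Of 7 glucocorticoid-induced genes, read because both groups received hydrocortisone, 2 passed, at 63.8 and 62.0 CPM for Fkbp5 and 26.8 and 25.5 CPM for Tsc22d3, with a median of 0.06. The background of all genes is that given above for all kept cells, with a median of 0.04. Across 4652 genes the log2 ratio was higher for longer transcripts, with a Spearman rho of 0.422, as a description over genes that are not independent. With that trend taken out Fosb was at 0.88, Dusp1 at 0.54, Jun at 0.49, Fos at 0.43 and Zfp36 at -0.54.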

How the data were processed

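Mouse bone marrow cells were profiled with 10x Genomics 3′ libraries, per the labels' protocols. The authors deposited unnormalized UMI counts, made with Cell Ranger 6.0 per the submitters' processing notes. The build, annotation and any cell filter were not given in the sources used here. Cell names carry a group and no sample letter, so each group was 1 library and the edgeR test planned for separate samples was not run.

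Cells with at least 300 genes and at most 10% mitochondrial UMIs were kept. Scrublet (scanpy 1.11.5), whose automatic threshold marked 0.0120% of deoxycholic acid and 0.0110% of media control cells, was replaced by removal of the highest 6% of scores, with ties 6.80% and 6.27%. Gates were applied in the order basophil or mast gate, late neutrophil (3), secondary granule (5), and primary granule (Mpo, Elane, Prtn3 and Ctsg together at least 30), the last divided at 5 of Mpo. UMIs were summed per gate and library. A gene was counted where the higher library had 20 CPM and 50 UMIs or more, and a call was a log2 ratio of 0.5, or 2 between gates. Ratio intervals are exact binomial and share intervals exact Clopper-Pearson, at 95%. Simulated counts with known folds were used to test the ratio code.

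The members and lists were chosen with earlier results of these data known. The genes named were the 10 members, list genes past 0.5, the 3 most abundant genes of each list and the 10 genes most correlated with the summed members; marker genes and Pf4 were named after their values were seen, and 1 list gene is not reported here. TMM factors came from edgeR 4.0.16 in R 4.3.3, and Python 3.11.15, numpy 2.4.6, scipy 1.17.1 and pandas 2.3.3 were used. Alternatives in scaling, cell filter, doublets, gate thresholds, thinning and transcript length are compared in the closing section, where a mean over cells within a stage and in the gate, and gate cells with Mcpt8 of at least 10, were chosen after seeing the data. Promoter sequences are from RefSeq.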

Additional observations from a re-analysis of the deposited data

Results flagged for a closer look

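Egr1 and Ier2 differed in direction between gates, with each interval excluding 0. Egr1 was lower in the deoxycholic acid library in ungated cells, with a log2 ratio of -0.55, and higher in Mpo-low primary granule cells, at 0.90. Ier2 was lower in the basophil or mast gate, at -0.38, and higher in secondary granule cells, at 0.077. The second value is close to the median of all genes in secondary granule cells, 0.073, and the median in the basophil or mast gate was -0.10. With 1 library a group, neither difference between gates was tested.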

How the results depend on the processing

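Each group is 1 library, so no replicate could be left out. No paired analysis was possible because cell names carry only the group, so no cell could be tied to a lettered sample. Over all kept cells, the count of members higher with deoxycholic acid (3) was 1 with median-of-ratios factors, with TMM factors, with a mean over cells and with cells thinned to 5000 UMIs. The count lower (1) was 2 with a mean over cells, 3 with thinned cells and 0 without the basophil or mast gate. It was also 0 with the mean of the ratios within stages, which left that gate out as well. With thinned cells Egr1 was at -0.59, Ier3 at -0.65, Zfp36 at -0.82 and Junb at -0.48. Fosb was then at 0.75, Jun at 0.42, Dusp1 at 0.30 and Fos at 0.16. Thinning keeps 44 of 92 deoxycholic acid and 102 of 152 media control gate cells. A mean over cells gave 1 higher member in secondary granule cells and 1 in ungated cells, and 1 lower in each of them. Doubled stage thresholds gave 1 lower member in secondary granule cells and 0 in ungated cells, and no doublet removal gave 2 lower in late neutrophils. Members found per cell, deoxycholic acid minus media control, differed by 0.195 at 5000 UMIs, 0.165 at 2000 UMIs and -0.12 with no thinning. Without a minimum, the wider lists had 6 genes higher and 8 lower. Other counts of members in the treatment comparison stayed within 1.5 times. The count of members at least 4-fold higher in the gate was 10 in both libraries under each setting, except 8 in the deoxycholic acid library with a gate on Prss34 and Mcpt8. Among member values the sign changed in 8 of 99 over all kept cells, 13 of 230 within stages and 0 of 100 between the gate and other cells, and never for a value past its threshold. With 1 library a group, the spread between cultures is not measured. The basophil or mast gate is small and shallow, and its ratios carry wider intervals than those over all kept cells.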
